A study of Mus musculus with 8 samples.

Results

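Collagen VI and the collagens that sit on or between the large fibrils were followed in cardiac fibroblasts with and without the *Lmna* gene, which encodes the nuclear lamina proteins lamin A and C. The genes were taken by their symbols, with no value in the rule. They are the collagen VI chain genes *Col6a1*, *Col6a2* and *Col6a3*, the fibril-associated collagens *Col12a1*, *Col14a1* and *Col16a1*, the multiplexins *Col15a1* and *Col18a1*, and the short-chain collagen *Col8a1*. All 9 were among the 18957 genes listed, and all 9 were among the 13036 genes that passed the filter on low counts and were tested.

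The cells were sorted from ventricles of C57BL/6 (mixed) mice aged 3 to 4 weeks as living cells that carried PDGFRA, a growth factor receptor of fibroblasts, and lacked blood lineage markers. One group was WT littermates (n = 4 libraries). The other was Pdgfra-Cre:LmnaF/F (n = 4 libraries), in which a bacterial artificial chromosome transgene with the *Pdgfra* promoter drives Cre recombinase and both *Lmna* alleles carry a floxed exon 2. This Cre is also active in part of the cardiac myocytes and outside the heart, and mice with the Cre alone were not analysed here, so the transgene and the loss of *Lmna* cannot be told apart. The labels do not say that each library is a separate mouse, so the p-values measure the spread between these libraries.

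Collagen VI is assembled inside the cell from an α1, an α2 and an α3 chain, and its tetramers join end to end outside the cell into beaded microfilaments that link cells to the surrounding matrix. Fibril-associated collagens with interrupted triple helices (FACIT) lie on the surface of collagen I fibrils and help to set their spacing. The multiplexins, collagens XV and XVIII, lie in and next to basement membranes, and collagen VIII forms networks under endothelium and in remodelling tissue. In the heart, fibroblasts are a main source of interstitial matrix, and collagen VI surrounds the myocytes.

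A collagen chain is recognised in its coding sequence by runs of triplets of codons that begin with glycine, the Gly-X-Y repeat that winds into the triple helix, and a break in the run is an interruption of the helix. The start of the longest run, 6 repeats each, is shown for the genes with the lowest p and for *Col8a1*, whose levels overlapped between genotypes. Each stretch was read 5′ to 3′ from the longest annotated coding sequence of the gene (GENCODE M21, GRCm38), and the capitals mark the glycine codons.

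Col6a1: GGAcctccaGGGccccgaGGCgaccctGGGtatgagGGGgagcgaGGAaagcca
Col6a2: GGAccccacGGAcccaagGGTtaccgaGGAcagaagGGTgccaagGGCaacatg
Col6a3: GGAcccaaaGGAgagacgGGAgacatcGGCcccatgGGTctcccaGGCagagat
Col14a1: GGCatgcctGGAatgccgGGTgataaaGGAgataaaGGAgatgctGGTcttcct
Col15a1: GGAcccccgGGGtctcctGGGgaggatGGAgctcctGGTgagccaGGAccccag
Col8a1: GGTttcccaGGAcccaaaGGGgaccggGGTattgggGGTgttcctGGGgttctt

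These stretches begin at codon 256 of *Col6a1*, codon 271 of *Col6a2*, codon 1558 of *Col6a3*, codon 1517 of *Col14a1*, codon 629 of *Col15a1* and codon 355 of *Col8a1*. Counting runs of at least 5 repeats, *Col6a1* held 109 repeats in 3 runs, and *Col6a2* and *Col6a3* each held 110 repeats in 3 runs. The longest run was 87 repeats in *Col6a1* and in *Col6a2* and 45 in *Col6a3*, so the chains of collagen VI differed little in the length of helix that they code for, although *Col6a3* has 2677 codons and *Col6a1* has 1025. The FACIT genes *Col12a1* and *Col14a1* were alike in this count, with 83 repeats in 5 runs and a longest run of 32 in each. *Col16a1* had 327 repeats broken into 21 runs. The multiplexins were also broken often, with 114 repeats in 11 runs in *Col15a1* and 169 in 14 runs in *Col18a1*. *Col1a1*, a chain of the fibril-forming collagen I, held 338 of its 355 repeats in a single run.

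**Figure D1:**
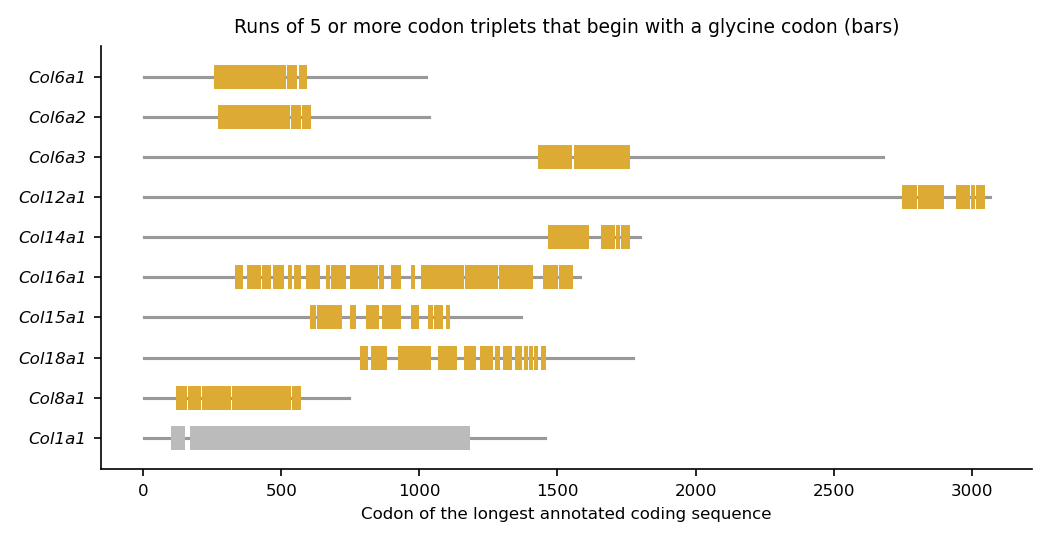
Position of Gly-X-Y runs of 5 or more repeats along the longest annotated coding sequence of each gene, in codons on the horizontal axis. Gold bars are runs in the 9 genes and grey bars are runs in *Col1a1*, shown as a fibril-forming chain. The runs of the collagen VI chains take up a short middle block, those of *Col12a1* and *Col14a1* lie near the end of a long chain, and that of *Col1a1* is 338 repeats long without a break.

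The libraries held between 2080555 and 12502949 counts, with the lowest in WT replicate 2. *Lmna* was lower in the Pdgfra-Cre:LmnaF/F libraries, at 90.4 to 130.0 CPM (counts per library total scaled with TMM factors) against 273.7 to 482.9 CPM in the WT, with a log2 fold change of -1.72 ± 0.22 (SE, adjusted p = 0.00492, edgeR). The counts are per gene, so the deleted exon itself was not seen. Of 13036 genes, 31 were lower and 22 higher at an adjusted p under 0.05. The summed CPM of 8 fibroblast markers ranged from 56660 to 79490 in the WT and from 67070 to 74700 in the Pdgfra-Cre:LmnaF/F libraries. Most of this sum was *Gsn*, at 31960 to 50330 and 36030 to 45390 CPM. *Pdgfra* had 1275 to 2108 CPM in the WT and 1807 to 2761 CPM in the Pdgfra-Cre:LmnaF/F libraries, and *Col1a1* had 1451 to 5508 and 2245 to 2730 CPM. The markers of the labelled cell type were thus abundant in every library. Sums of 5 cardiac myocyte markers were 668.2 to 953.6 CPM in the WT and 258.0 to 848.6 CPM in the first 3 Pdgfra-Cre:LmnaF/F replicates, but 5317 CPM in replicate 4, which also had the highest sum of 5 immune markers, 395.4 CPM against at most 173.7 CPM in the other libraries. Endothelial, mural, Schwann and epicardial sums were at most 310.2 CPM in each library, and their ranges overlapped between genotypes. All 5 endothelial markers were fitted lower, with a median log2 fold change of -0.46, and *Cdh5*, a junction protein of endothelium, had -1.17 ± 0.38 (adjusted p = 0.215, edgeR). All 4 epicardial markers were fitted lower too, with a median of -1.05, and the part of either cell type in the collagen levels was not tested. Some library had no count for 2 of 5 immune, 4 of 4 Schwann and 3 of 4 epicardial markers.

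Most of the 9 collagens were fitted lower in the Pdgfra-Cre:LmnaF/F fibroblasts, *Col6a2* and *Col6a3* by the most, and none passed the threshold after adjustment by edgeR. The fitted change was negative for 7 of the 9 genes, where 48.2% of all genes tested were negative, and the median log2 fold change was -0.72, where that of all genes was 0.02. At an unadjusted p under 0.05, 6 of 9 were lower (*Col6a1*, *Col6a2*, *Col6a3*, *Col14a1*, *Col15a1* and *Col18a1*) and none was higher, beside 5.65% of all genes lower and 6.24% higher. At an adjusted p under 0.05, 0 of 9 were lower by edgeR, beside 0.238% of all genes. DESeq2 called 3 of 9 lower, beside 1.22% of all genes, and limma-voom called the same 3, *Col6a2*, *Col6a3* and *Col14a1*, beside 0.483%. Without the filter on low counts edgeR called 2 of 9 lower, *Col6a2* and *Col6a3*, beside 0.781%, and DESeq2 with 1 factor of unwanted variation (RUV) called 3, beside 1.48%. Without WT replicate 3, edgeR called *Col6a2* alone, 1 of 9, beside 0.176%. In sorted bulk RNA, fewer cells of a kind that express a gene and less RNA of that gene per cell cannot be told apart.

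**Figure D2:**
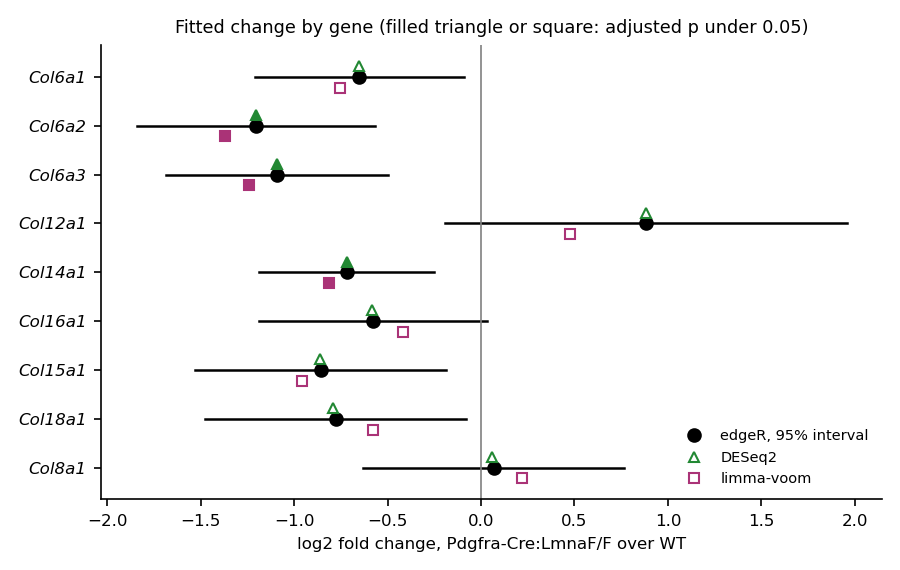
Fitted log2 fold change of each gene, Pdgfra-Cre:LmnaF/F over WT (n = 4 libraries each), on the horizontal axis. Black points are edgeR estimates with 95% intervals, triangles are DESeq2 and squares limma-voom, filled where the adjusted p is under 0.05. The intervals of 6 genes lie wholly below 0, and the filled symbols are those of *Col6a2*, *Col6a3* and *Col14a1*.

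Levels of different genes were compared per length, as CPM per kb of annotated exon. *Col6a1* was the most abundant in the WT at 1016 ± 278.9 CPM per kb (SD, n = 4), place 14 among 12989 genes with a length. *Col15a1* followed at 511.5 ± 106.1, *Col6a2* at 344.5 ± 122.8 and *Col6a3* at 249.5 ± 69.4 CPM per kb, at places 40, 76 and 119. These 4 genes were thus among the most abundant transcripts of the sorted cells. *Col14a1* had 95.7 ± 2.07, *Col8a1* 51.6 ± 21.9, *Col16a1* 28.5 ± 13.6 and *Col18a1* 18.9 ± 8.93 CPM per kb. *Col12a1* was far below the rest at 0.966 ± 0.577 CPM per kb, place 11036.

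The ranges of some neighbours in this order overlapped between WT libraries. *Col6a2* overlapped with *Col15a1* above it and with *Col6a3* below it, *Col8a1* overlapped with *Col16a1*, and *Col16a1* overlapped with *Col18a1*. Within a library, each of these pairs kept its order in 4 of 4 WT libraries, so the overlap came from differences between libraries. *Col6a1* was above *Col15a1*, *Col6a3* above *Col14a1*, *Col14a1* above *Col8a1* and *Col18a1* above *Col12a1* with no overlap. The order was the same in the Pdgfra-Cre:LmnaF/F libraries by their means per kb of all exons, from 646.5 ± 165.7 CPM per kb for *Col6a1* to 1.76 ± 0.923 for *Col12a1*. *Col8a1* came close to *Col14a1* there, at 54.1 ± 20.3 against 58.1 ± 16.5 CPM per kb, and lay above it per kb of the longest transcript, at 82.9 against 63.1. Within a Pdgfra-Cre:LmnaF/F library, *Col14a1* was above *Col8a1* in 3 of 4 and *Col15a1* above *Col6a2* in 3 of 4. The other pairs that overlapped in the WT kept their order in 4 of 4. The 9 genes together held 0.978% to 1.78% of the counts of a WT library and 0.635% to 1.05% of those of a Pdgfra-Cre:LmnaF/F library.

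*Col6a1* (ENSMUSG00000001119.7, chr10:76708792-76726168, minus strand, GRCm38) encodes the α1 chain of collagen VI. The WT replicates 1 to 4 had 5184, 5539, 2800 and 4274 CPM, and the Pdgfra-Cre:LmnaF/F replicates had 3370, 3453, 1910 and 2594 CPM. Replicate 3 was the lowest of each genotype, and WT replicate 3 lay within the range of the Pdgfra-Cre:LmnaF/F libraries. The mean was 36.3% lower by the fit, a log2 fold change of -0.65 ± 0.26 (SE, adjusted p = 0.337, edgeR).

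*Col6a2* (ENSMUSG00000020241.13, chr10:76595762-76623630, minus strand) encodes the α2 chain and lies 85.2 kb from *Col6a1*. Its levels were 3130, 3909, 1463 and 2973 CPM in the WT and 1465, 1574, 777.5 and 1157 CPM in the Pdgfra-Cre:LmnaF/F libraries. Only WT replicate 3 reached into the other genotype, where it was below replicates 1 and 2. The fit gave a log2 fold change of -1.21 ± 0.30, or 2.31-fold lower, the largest change of the 9 in absolute size (adjusted p = 0.114, edgeR). DESeq2 gave an adjusted p of 0.00195 and limma-voom with quality weights 0.0115. Without WT replicate 3 the log2 fold change was -1.43, the edgeR adjusted p was 0.0307, and the groups were apart. With any other library omitted the edgeR adjusted p was 0.109 to 0.295.

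*Col6a3* (ENSMUSG00000048126.16, chr1:90765923-90843971, minus strand) encodes the long α3 chain, whose end is cut off to give the peptide endotrophin. It had 3260, 3806, 1839 and 3034 CPM in the WT and 1611, 1947, 954.9 and 1084 CPM in the Pdgfra-Cre:LmnaF/F libraries. The only crossing was between WT replicate 3 and Pdgfra-Cre:LmnaF/F replicate 2. The log2 fold change was -1.09 ± 0.28, or 2.13-fold lower, with an adjusted p of 0.123 by edgeR, 0.00319 by DESeq2 and 0.0119 by limma-voom. Without WT replicate 3 the edgeR value was 0.0589, and with any other library omitted it was 0.116 to 0.307.

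**Figure D3:**
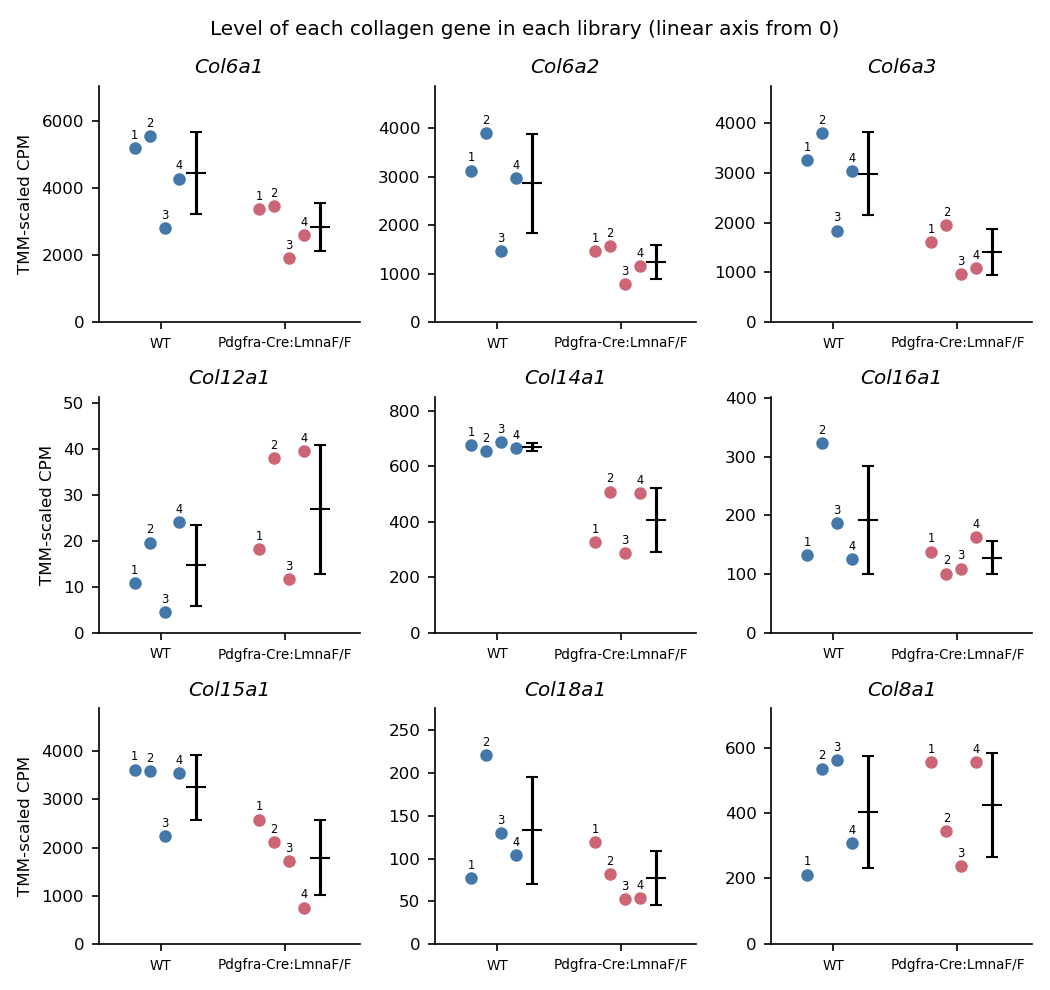
TMM-scaled CPM of each of the 9 genes in each library, on linear axes from 0, with WT in blue and Pdgfra-Cre:LmnaF/F in red. Numbers are replicate numbers, and the black marks are the mean and SD of 4 libraries. Replicate 3 is the lowest of both genotypes for *Col6a1*, *Col6a2* and *Col6a3*, the groups of *Col14a1* do not overlap, and those of *Col8a1* overlap over most of their range.

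The α1, α2 and α3 chains enter collagen VI together, and the ratios between their transcripts are given as values, with no test. The log2 ratio of *Col6a2* to *Col6a1* per length was -1.65, -1.43, -1.86 and -1.45 in WT replicates 1 to 4 and -2.13, -2.06, -2.22 and -2.09 in the Pdgfra-Cre:LmnaF/F replicates, a difference of means of -0.53. The ratio of *Col6a3* to *Col6a1* was -2.12, -1.99, -2.06 and -1.94 in the WT and -2.51, -2.28, -2.45 and -2.71 in the Pdgfra-Cre:LmnaF/F libraries, a difference of -0.46. In both ratios the genotypes were apart. WT replicate 3 had the lowest WT ratio of *Col6a2* to *Col6a1*, nearest to the other genotype.

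The ratio of *Col6a3* to *Col6a2* overlapped between genotypes, at -0.43 ± 0.16 (SD, n = 4) in the WT and -0.36 ± 0.19 in the Pdgfra-Cre:LmnaF/F libraries. As a background, 0.25% of 11178 genes had a ratio to *Col6a1* that was lower in all Pdgfra-Cre:LmnaF/F than in all WT libraries, and since *Col6a1* itself was low there, few genes could fall below it. The level of the ratios depends on the annotated length, since *Col6a2* has 344.5 CPM per kb of all its exons but 584 CPM per kb of its longest transcript in the WT, while the difference between genotypes does not.

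**Figure D4:**
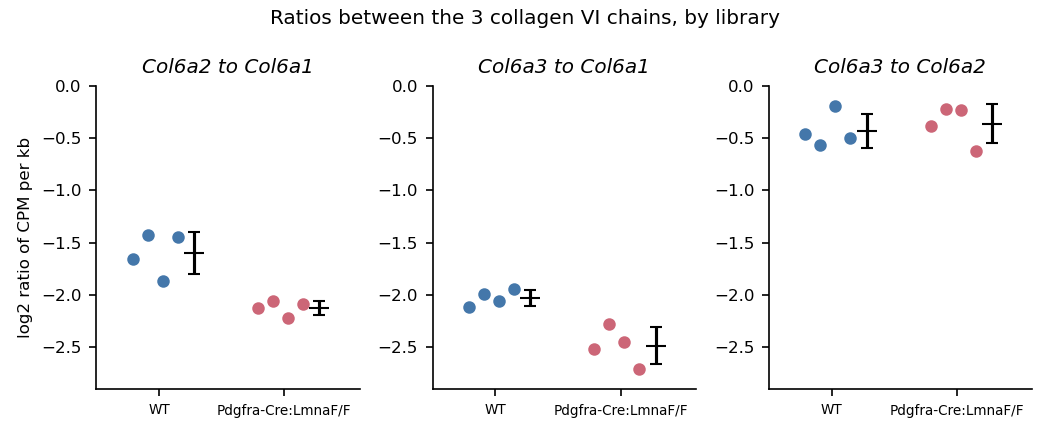
Log2 ratio of CPM per kb between collagen VI chains in each library, with WT in blue, Pdgfra-Cre:LmnaF/F in red and the mean and SD of 4 libraries in black. *Col6a2* and *Col6a3* lie lower against *Col6a1* in every Pdgfra-Cre:LmnaF/F library than in any WT library, and the ratio of *Col6a3* to *Col6a2* overlaps.

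The other chains that can take the place of α3 were scarcer. *Col6a6* had 353.4 ± 120.8 CPM in the WT and 207.2 ± 13.2 CPM in the Pdgfra-Cre:LmnaF/F libraries, a log2 fold change of -0.77 ± 0.25 (adjusted p = 0.216, edgeR). Its adjusted p was 0.0407 without WT replicate 3 (edgeR), 0.225 to 0.483 with any other library omitted, and 0.00467 by DESeq2 with 1 RUV factor. *Col6a5* was near 10 CPM in both, at 12.4 ± 10.3 and 10.1 ± 4.77 CPM, and *Col6a4* did not pass the filter.

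Among the FACIT genes, *Col14a1* (ENSMUSG00000022371.16, chr15:55307750-55520803, plus strand) encodes collagen XIV, also called undulin, which binds to the surface of collagen fibrils. It had 677.3, 655.1, 688.5 and 664.9 CPM in the WT, a coefficient of variation of 2.17%, and 328.1, 509.0, 288.3 and 504.8 CPM in the Pdgfra-Cre:LmnaF/F libraries, where it was 28.4%. It was the only one of the 9 with every Pdgfra-Cre:LmnaF/F library below every WT library, beside 3.97% of all genes tested that lay lower in this way. The log2 fold change was -0.72 ± 0.22, or 1.65-fold lower (adjusted p = 0.194, edgeR). The adjusted p was 0.0368 by DESeq2 and 0.0417 by limma-voom. Without WT replicate 3, 5 of 9 lay lower in this way (*Col6a1*, *Col6a2*, *Col6a3*, *Col14a1* and *Col15a1*), beside 7.15% of all genes. Without Pdgfra-Cre:LmnaF/F replicate 1 there were 2 of 9, beside 6.84% of all genes, and without its replicate 2 there were 2, beside 5.74%.

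*Col16a1* (ENSMUSG00000040690.15, chr4:130047840-130099283, plus strand) encodes collagen XVI, a minor collagen of fibrils and microfibrils. It had 132.2, 323.5, 187.3 and 125.9 CPM in the WT and 138.4, 101.0, 109.4 and 163.2 CPM in the Pdgfra-Cre:LmnaF/F libraries. WT replicate 2, the library of lowest depth, stood highest, and the others overlapped. Its log2 fold change was -0.58 ± 0.29 (adjusted p = 0.454, edgeR), and -0.22 without WT replicate 2.

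*Col12a1* (ENSMUSG00000032332.17, chr9:79598991-79718831, minus strand) encodes collagen XII, which is abundant in tendon and in healing tissue. It was the only fibril-associated gene of the 9 with a fitted change above 0, on 28 to 474 counts per library. Its levels were 10.7, 19.6, 4.47 and 24.0 CPM in the WT and 18.2, 38.1, 11.6 and 39.5 CPM in the Pdgfra-Cre:LmnaF/F libraries, which overlapped. The fit gave a log2 fold change of 0.88 ± 0.50 (adjusted p = 0.539, edgeR), with a 95% interval from -0.20 to 1.96. It was 0.57 without WT replicate 3 and 0.48 by limma-voom.

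Of the other FACIT genes, *Col9a2*, *Col9a3*, *Col20a1* and *Col22a1* were tested, at mean levels of at most 18.3 CPM. All 4 had fitted changes above 0, from 0.26 to 1.17, and none passed the threshold, with a lowest adjusted p of 0.575 (edgeR). *Col9a1* and *Col19a1* did not pass the filter.

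The multiplexin *Col15a1* (ENSMUSG00000028339.17, chr4:47208161-47313167, plus strand) encodes collagen XV, which links basement membranes to the fibrils next to them. It had 3619, 3583, 2238 and 3552 CPM in the WT and 2581, 2111, 1717 and 753.6 CPM in the Pdgfra-Cre:LmnaF/F libraries. The other three WT libraries lay close together, and WT replicate 3 was within the range of the other genotype. Pdgfra-Cre:LmnaF/F replicate 4, with the high sum of myocyte markers, was the lowest. The log2 fold change was -0.86 ± 0.31, or 1.81-fold lower (adjusted p = 0.288, edgeR), and -0.61 without that library.

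*Col18a1* (ENSMUSG00000001435.15, chr10:77052178-77166548, minus strand) encodes collagen XVIII, a basement membrane proteoglycan whose end is released as endostatin. It had 77.2, 221.4, 129.9 and 103.9 CPM in the WT and 119.6, 81.8, 52.7 and 54.0 CPM in the Pdgfra-Cre:LmnaF/F libraries, with overlap. The log2 fold change was -0.78 ± 0.33 (adjusted p = 0.365, edgeR), and -0.43 without WT replicate 2. *Slc19a1* overlaps *Col18a1* on the opposite strand for 8825 bases, and it was at 6.08 CPM in the WT.

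*Col18a1* lies in the same 571 kb of chromosome 10 as *Col6a1* and *Col6a2*. The other genes tested between them were *Pcbp3*, with a log2 fold change of -0.76 ± 0.52, and *Slc19a1*, with -0.22 ± 1.10, and neither passed the threshold (adjusted p = 0.625 and 0.965, edgeR). *Col6a3*, with a log2 fold change of -1.09 beside -1.21 for *Col6a2*, lies on chromosome 1.

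*Col8a1* (ENSMUSG00000068196.5, chr16:57624258-57754737, minus strand) encodes the α1 chain of collagen VIII, a network collagen of vessel walls. It had 212.0, 535.9, 561.1 and 308.5 CPM in the WT and 555.1, 344.1, 238.0 and 556.3 CPM in the Pdgfra-Cre:LmnaF/F libraries. Both groups ran from low to high over nearly the same range. The fit gave a log2 fold change of 0.07 ± 0.33 (adjusted p = 0.964, edgeR), with a 95% interval from -0.63 to 0.77, so a change of the size seen in *Col6a2* lay outside it and a moderate change in either direction did not. WT replicate 3 was here the highest of its group, not the lowest. Its partner chain *Col8a2* had a log2 fold change of -0.09 ± 0.37 and the related *Col10a1* 1.02 ± 0.91, at 3.39 CPM in the WT (adjusted p = 0.958 and 0.743, edgeR).

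Collagens outside the 9 were compared by counts. Of 11 fibrillar collagen genes, 7 were fitted lower and 4 higher, with a median log2 fold change of -0.005. None passed the threshold by edgeR and 1 did by DESeq2 and by limma-voom. At an unadjusted p under 0.05, 2 were lower and none higher, beside 5.65% and 6.24% of all genes. The 4 fitted higher, *Col2a1*, *Col11a1*, *Col11a2* and *Col24a1*, were at 1.98 to 5.32 CPM in the WT. Of the more abundant chains, *Col1a1* and *Col3a1* had log2 fold changes of -0.51, *Col1a2* -0.18 and *Col5a2* -0.005. The lowest p belonged to *Col5a3*, a chain of collagen V, at -1.02 ± 0.23 (adjusted p = 0.0833, edgeR), and to *Col5a1* at -0.57 ± 0.27 (adjusted p = 0.416). All 6 type IV genes of the basement membrane were fitted lower and 2 passed, *Col4a3* at -2.28 ± 0.30 (adjusted p = 0.00492) and *Col4a4* at -2.31 ± 0.28 (adjusted p = 0.00273, edgeR), each a larger change than in any of the 9. The membrane collagens *Col13a1*, *Col17a1*, *Col23a1* and *Col25a1*, at most 11.7 CPM on average, gave log2 fold changes of -0.44, 0.08, 1.08 and -1.23, and none passed. No test compared these lists with each other.

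Collagen VI is bound by integrins, by the anthrax toxin receptors, by NG2 and by small proteoglycans of the matrix. Of 14 genes for such partners, 11 were fitted lower and 1 passed, *Itga11*, the α chain of a collagen-binding integrin of fibroblasts. *Itga11* had 102.9 ± 23.7 CPM in the WT and 23.2 ± 12.5 CPM in the Pdgfra-Cre:LmnaF/F libraries, a log2 fold change of -2.14 ± 0.36 (adjusted p = 0.0232, edgeR). Without WT replicate 2 its edgeR adjusted p was 0.0513, so that 0 of the 14 passed, while 3 of the 14 passed by DESeq2 with 1 RUV factor. At an unadjusted p under 0.05, 5 of the 14 were lower and none higher, beside 5.65% and 6.24% of all genes.

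Of 10 genes for proteins on the surface of fibrils, where the FACIT collagens lie, 5 were fitted lower and 5 higher. At an unadjusted p under 0.05, 3 were lower and 1 higher, beside 5.65% and 6.24% of all genes. None passed by edgeR and 1 did by DESeq2 and by limma-voom. The lowest p belonged to *Prelp*, a leucine-rich proteoglycan, at 644.6 ± 76.0 CPM in the WT and 323.1 ± 90.8 CPM in the Pdgfra-Cre:LmnaF/F libraries (adjusted p = 0.0791, edgeR), and to *Fn1*, fibronectin, with a log2 fold change of -0.56 ± 0.21 (adjusted p = 0.307). Without Pdgfra-Cre:LmnaF/F replicate 1 *Prelp* passed (adjusted p = 0.0399, edgeR), and with any other library omitted its value was 0.0691 to 0.223. The gene higher at an unadjusted p was *Thbs4*, a thrombospondin named here after its values were seen, with 954 counts in Pdgfra-Cre:LmnaF/F replicate 4, the library with the high myocyte sum, against 13, 0 and 28 in replicates 1 to 3. Its log2 fold change was 3.13 with that library and -0.60 without it.

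Chains of collagen are hydroxylated, folded and trimmed by a common set of enzymes. Of 20 such genes, 16 were fitted lower, with a median log2 fold change of -0.44. At an unadjusted p under 0.05, 8 were lower and 1 higher, beside 5.65% and 6.24% of all genes. After adjustment 1 passed. It was *P4ha2*, a catalytic subunit of prolyl 4-hydroxylase, with 80.3 ± 25.9 CPM in the WT and 26.8 ± 10.5 CPM in the Pdgfra-Cre:LmnaF/F libraries, a log2 fold change of -1.58 ± 0.31 (adjusted p = 0.0446, edgeR). This call was not kept by limma-voom (adjusted p = 0.0596), nor by edgeR in 6 of the 8 fits with a library omitted, WT replicates 2, 3 and 4 and Pdgfra-Cre:LmnaF/F replicates 2, 3 and 4, where its adjusted p was 0.137, 0.0917, 0.075, 0.11, 0.161 and 0.0525. DESeq2 called 3 of the 20 lower, *P4ha2* among them (adjusted p = 0.000753). The 1 of the 20 higher at an unadjusted p was *Lox*, named here after its values were seen. *Lox* had 73.3 to 154.0 CPM in the WT and 115.3, 168.0, 372.7 and 826.4 CPM in the Pdgfra-Cre:LmnaF/F replicates. Its log2 fold change was 1.86 ± 0.48 (adjusted p = 0.125, edgeR). Of 9 genes for proteases that release endostatin and other fragments, none passed at either level, and 7 were fitted higher. The 2 with the lowest p were *Bmp1* at -0.39 ± 0.21 (adjusted p = 0.498) and *Mmp12* at 2.80 ± 1.52 (adjusted p = 0.505, edgeR), the latter at 0.885 CPM in the WT. The value of *Mmp12* rests on Pdgfra-Cre:LmnaF/F replicate 4, with 261 counts against 17, 0 and 17 in replicates 1 to 3, and it was 0.46 without that library.

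Within each genotype, several of the 9 genes were high or low in the same libraries. WT replicate 3 was the lowest WT library for 5 of the 9 genes, and Pdgfra-Cre:LmnaF/F replicate 3 was the lowest of its group for 7. WT replicate 2 was the highest for 5. The same counts over all genes are not given, so this pattern cannot be called particular to these collagens. The summed CPM of 11 genes of the dissociation response, the early genes such as *Fos* and *Egr1* that are induced when tissue is digested into cells, was 3091, 1612, 4371 and 2794 in WT replicates 1 to 4 and 5849, 6709, 9415 and 6189 in the Pdgfra-Cre:LmnaF/F replicates. The genotypes did not overlap in this sum, replicate 3 was the highest of each, and WT replicate 2 was the lowest of all. All 11 genes were detected in every library. At an unadjusted p under 0.05, 9 were higher, beside 6.24% of all genes. None passed the threshold by edgeR, where DESeq2 called 8 and limma-voom 5 of them higher. The part of this response in the levels of the collagens was not tested.

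**Figure D5:**
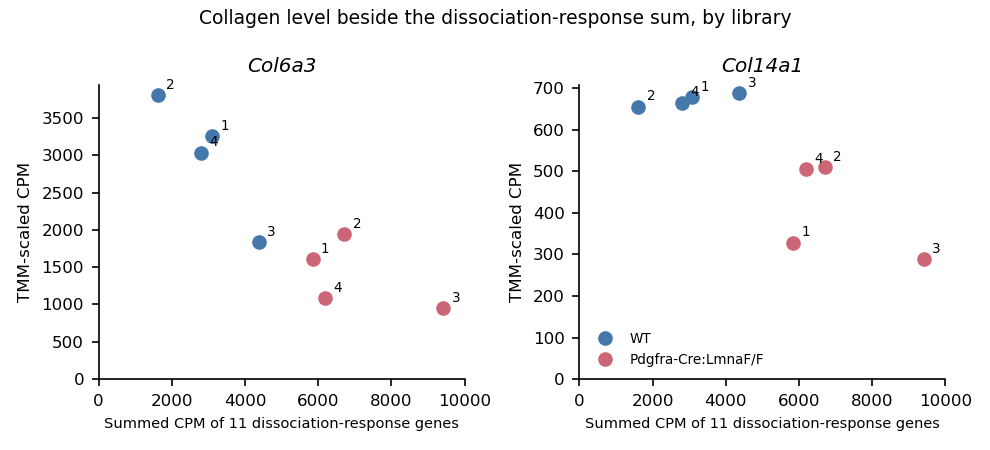
TMM-scaled CPM of *Col6a3* and *Col14a1* in each library against the summed CPM of 11 dissociation-response genes, with WT in blue, Pdgfra-Cre:LmnaF/F in red and replicate numbers beside the points. The genotypes do not overlap on the horizontal axis. *Col6a3* is lowest in replicate 3 of each genotype, where the sum is highest, and *Col14a1* is lowest, at 288.3 CPM, in Pdgfra-Cre:LmnaF/F replicate 3. In the WT *Col14a1* lies between 655.1 and 688.5 CPM over sums from 1612 to 4371.

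*Col14a1* did not share this spread in the WT, where it was as high in replicate 3 as in the rest, but in the Pdgfra-Cre:LmnaF/F libraries it too was lowest in replicate 3, at 288.3 CPM. The pattern of each gene over the 8 libraries was set against the mean of the collagen VI chains as the root-mean-square difference of centred log2 CPM. *Col14a1* differed by 0.43 and *Col15a1* by 0.45, then *Col18a1* by 0.51 and *Col16a1* by 0.61, and *Col8a1* and *Col12a1* were least like it, at 0.87 and 1.13. Outside the 9, the nearest of 4997 genes that varied at least as much were *Lrrn2* at 0.15, *Nectin1* at 0.22, *Cercam* at 0.23, *Syngr2* at 0.28 and *Ywhag* at 0.29. In the fit over all genes *Cercam* passed, with a log2 fold change of -1.33 (adjusted p = 0.0368, edgeR), a call lost in 7 of the 16 alternatives. The others did not pass, with adjusted p of 0.0886 to 0.592 (edgeR). The patterns were centred over both genotypes, so the difference between genotypes is part of what chose these genes. Their p-values are therefore not independent of that choice.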

How the data were processed

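RNA of sorted PDGFRA-positive, lineage-negative cells of 4 WT and 4 Pdgfra-Cre:LmnaF/F libraries was analysed, and groups were taken from the sample labels. The authors made stranded, ribosomal RNA depleted libraries (150 bp paired-end), aligned reads to mm10 with HISAT2 and counted GENCODE genes with featureCounts. The strand setting of the counting is not given in the sources used here. The deposited values are whole numbers, taken here as raw counts, 1 per gene symbol and library. The lowest total of a listed gene over the 8 libraries was 4 counts. Per the labels, DESeq2 was among the tools, and the paper names RUV, whose variant is not given. Whether RUV entered the deposited counts was not tested.

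Genes were filtered with filterByExpr, scaled with TMM factors and fitted in edgeR 4.0.16 (limma 3.58.1, R 4.3.3) by quasi-likelihood with a genotype term alone. Adjustment followed Benjamini and Hochberg over all 13036 genes. The threshold was an adjusted p of 0.05. Total counts were 2080555 to 12502949 per library, and SEs cover the spread between libraries. CPM per kb used the union of exons in GENCODE M21 (GRCm38). Runs of Gly-X-Y codons were read from its coding sequences with Python 3.11.15. The procedure was tested on simulated counts. The alternatives were DESeq2 1.42.0, limma-voom with quality weights, RLE factors, no filter, a minimum of 10 counts in every library, 1 factor of residual-based RUV, a block for the replicate number, and omission of each library in turn. The counts at an unadjusted p and of non-overlapping groups with a library left out were added after seeing the data. Pairing by replicate number was not used in the comparisons, since the labels do not tie a number to a litter or day.

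The members and lists were chosen with earlier results of these data known. The named genes are the members, *Lmna*, every tested gene of the smaller collagen lists, from each other list the genes past the threshold or the 2 with the lowest p, and the 5 genes with a pattern nearest to collagen VI. Other genes, *Lox*, *Thbs4* and further fibrillar collagens among them, were named after their values were seen.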

Additional observations from a re-analysis of the deposited data

Results flagged for a closer look

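*Col15a1* in WT replicate 3, at 2238 CPM, stood far from the other WT libraries, which had 3552 to 3619 CPM. Its gap to the nearest of them, divided by the whole range of the group, was above the 95% critical value of Dixon's test for 4 samples. It was the only value so marked among 20 groups of 4 looked at, and chance marks about 1 in 20.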

How the results depend on the processing

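The fitted direction of 8 of the 9 genes was the same in all 16 alternative fits, and that of *Col8a1* turned in 4 of 8 when single libraries were omitted, within a range of -0.14 to 0.27 (-0.14 and -0.04 without WT replicates 1 and 4, -0.09 and -0.09 without Pdgfra-Cre:LmnaF/F replicates 1 and 4). The number of the 9 past the threshold, 0 by edgeR, was 3 by DESeq2, 3 by limma-voom, 2 with no filter, 3 by DESeq2 with 1 RUV factor, and 0 to 1 with a library left out. Over all genes the 53 past the threshold became 309, 126, 274 and 435 in the same settings, 84 by edgeR with 1 RUV factor, and 13 to 76 with a library left out. The genes with groups apart numbered 1 to 5 of 9 with a library left out, and those at an unadjusted p under 0.05 numbered 4 to 8 of 9, beside 5.11% to 7.15% of all genes apart in the lower direction and 8.88% to 13.1% of all genes at that p in either direction. The difference in the ratio of *Col6a2* to *Col6a1* stayed between -0.61 and -0.47 and that of *Col6a3* to *Col6a1* between -0.53 and -0.39. The cause of these shifts was not tested. Over all genes tested, log2 CPM deviations from the genotype mean were hardly correlated between same-number libraries (-0.03, -0.03, -0.004 and 0.04). Some of the 9 did move by number. *Col6a1* deviated by 0.27, 0.36, -0.62 and -0.01 in WT replicates 1 to 4 and by 0.29, 0.33, -0.53 and -0.09 in the Pdgfra-Cre:LmnaF/F replicates. *Col16a1* did not, at -0.43, 0.86, 0.07 and -0.50 against 0.14, -0.31, -0.20 and 0.38. With the replicate block 0 of the 9 and 36 genes in all passed. The edgeR adjusted p was then 0.0601 for *Col6a2*, 0.0764 for *Col6a3*, 0.259 for *Col14a1* and 0.0742 for *P4ha2*. *Lmna*, *Col4a3* and *Col4a4* passed in all 16 alternatives. Depth limits *Col12a1*, at 28 to 474 counts, more than the other 8 genes.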
